A study of Rattus norvegicus with 12 samples.

Results

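Stretched rat heart muscle cells that had received an siRNA against Wnt5a were compared with stretched cells that had received a control siRNA. The comparison rests on 6 of the 12 libraries of the series, 3 in each group, which were taken by their treatment labels. All cells were cardiomyocytes of Wistar rats, described by the series as coming from the ventricles of newborn animals, and both groups were stretched. The groups are called the stretched control and the stretched Wnt5a siRNA libraries. As far as the labels say, they differed in the siRNA alone. The other 6 libraries carried the same siRNAs without stretch and served as a second comparison of the siRNAs that shares no library with the first. They also entered the pooled spread behind the p-values of both comparisons. The sources used here do not give the siRNA sequences or the strength and length of the stretch. Whether the siRNA acts directly on other transcripts was not tested. Whether the replicates of a group were separate cultures is not stated by the labels, and the p-values then reflect the spread among the libraries alone, in part perhaps a technical one. In such bulk RNA, fewer cells of a type and less RNA per cell cannot be told apart.

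Wnt5a is a secreted ligand that signals mainly without beta-catenin, through Frizzled, Ror and Ryk receptors, to planar polarity proteins, small GTPases, the kinase JNK and calcium. These routes act on actin filaments. Actin in turn governs a pair of transcriptional co-activators, MRTF, the partner of the serum response factor SRF, and YAP, the partner of the TEAD factors. The series title places Wnt5a and YAP on one path of mechanical signalling in cardiac myocytes. In cardiomyocytes, mechanical load is known to raise natriuretic peptides, immediate early genes and genes of the cytoskeleton.

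Each library listed FPKM (fragments per kilobase of transcript, scaled to the mapped fragments of the library) for 17312 gene symbols, and the 10518 with at least 1 FPKM in at least 3 of the 12 libraries were tested. FPKM hold no read numbers, so the depth is unknown and precision comes from the spread between libraries. The FPKM of a stretched control summed to between 676014 and 709021, and those of a stretched Wnt5a siRNA library to between 619742 and 659933. Changes are differences of log2(FPKM + 1) between group means ± SE, siRNA minus control, from 3 against 3 libraries. Adding 1 understates the change of low genes. The SE, intervals and adjusted p-values rest on a spread pooled over the 4 groups of all 12 libraries, the unstretched ones included. Adjusted p-values come from limma over all tested genes, and a gene is called higher or lower at an adjusted p under 0.05.

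Of 12 cardiomyocyte markers 11 were listed. Each of these reached at least 1 FPKM in at least 1 stretched library, in keeping with the label. The fibroblast collagens Col1a1 and Col3a1 were abundant too. Stretched control 3 stood apart from the other controls of its group. On the first principal component of the 6 libraries, with 58.6% of the variance, stretched controls 1 and 2 scored 29.0 and 24.6 and stretched control 3 scored 0.164. The stretched Wnt5a siRNA libraries scored −17.2, −13.4 and −23.1. The SD of the log2 differences between genes was 0.393 and 0.426 from stretched control 3 to the other controls, and 0.346 to 0.380 from it to the siRNA libraries. Every other pair within a group was at 0.236 to 0.277. Stretched control 3 lay nearer the siRNA mean than the mean of the other controls in 44.6% of the genes called with all libraries and in 64.8% of those called without it, a list that the other 2 controls chose. Results are therefore given with all libraries and again without it. Why this library differs was not tested.

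Wnt5a itself did not differ between the stretched groups beyond the spread. It was at 6.52, 5.66 and 8.22 FPKM in the stretched control and 6.22, 5.88 and 5.56 FPKM with Wnt5a siRNA, and the groups overlapped. The log2 change was −0.17 ± 0.14 (95% interval −0.47 to 0.14, adjusted p = 0.387 by limma, exact 2-sided permutation p = 0.3), and −0.04 without stretched control 3. Without stretch, Wnt5a was at 12.3, 10.4 and 11.6 FPKM in the control and 6.15, 4.599 and 6.81 in the siRNA libraries, a log2 change of −0.87 that passed the test (adjusted p = 0.0014). Under stretch the target transcript thus gave no check of the siRNA labels, and the comparison is one of libraries labelled as Wnt5a siRNA.

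Nppa and Nppb, the atrial and brain natriuretic peptides that heart muscle secretes under load, were both lower with Wnt5a siRNA. Nppa was at 7829, 5749 and 10954 FPKM in the stretched control and 2921, 4141 and 1976 FPKM with Wnt5a siRNA. All 3 siRNA libraries lay below all 3 controls, at 36.8% of the control mean (log2 change −1.46 ± 0.35, adjusted p = 0.0114 by limma). Nppb was at 3990.3, 3603 and 2564 FPKM in the stretched control and 1163, 1694 and 642 FPKM with Wnt5a siRNA, again without overlap (log2 change −1.62 ± 0.39, adjusted p = 0.0114). Acta1, the skeletal alpha-actin of the fetal and overloaded heart, had the largest change of the readouts. It was at 1387, 1235 and 238 FPKM in the stretched control and 106, 239 and 91.5 FPKM with Wnt5a siRNA. Stretched control 3 lay within the siRNA range, so the groups overlapped (log2 change −2.48 ± 0.54, adjusted p = 0.008), and without that library the change was −3.29 (adjusted p = 2.2e-05). Myh7, a further fetal gene that encodes the slow ventricular myosin, was at 1008, 1014 and 1072 FPKM in the stretched control and 1009, 1292 and 958 FPKM with Wnt5a siRNA, and the groups overlapped (log2 change 0.06 ± 0.13, 95% interval −0.22 to 0.35, adjusted p = 0.75). Nppa lost its call without stretched Wnt5a siRNA 3 (adjusted p = 0.0564). The call of Nppb was lost without stretched control 1 (adjusted p = 0.0532) or without stretched Wnt5a siRNA 3 (adjusted p = 0.0538).

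Target genes of YAP that are used as its readouts were lower with Wnt5a siRNA, while Yap1 itself did not pass the test. Ctgf, the matricellular protein CCN2, was at 2133, 1807 and 1293 FPKM in the stretched control and 773, 851 and 575 FPKM with Wnt5a siRNA. The groups did not overlap, and Ctgf kept 42.03% of its control mean (log2 change −1.24 ± 0.22, adjusted p = 0.0037 by limma). Cyr61, the related protein CCN1, was at 278, 231 and 185 FPKM in the stretched control and 138, 131 and 95.8 FPKM with Wnt5a siRNA, also without overlap (log2 change −0.92 ± 0.18, adjusted p = 0.0051). Ankrd1, a titin-binding ankyrin repeat protein of stressed muscle, was at 5818, 6289 and 3965 FPKM in the stretched control and 2904, 3431 and 2157 FPKM with Wnt5a siRNA (log2 change −0.92 ± 0.22, adjusted p = 0.0118). Its groups did not overlap either. Yap1 was at 65.3, 57.3 and 63.4 FPKM in the stretched control and 59.4, 62.4 and 57.5 FPKM with Wnt5a siRNA (log2 change −0.05 ± 0.07, 95% interval −0.196 to 0.09, adjusted p = 0.59). Its change was above 0 after quantile normalization and with TPM scaling, where every library is set to the same sum. Exact 2-sided permutation p-values of 3 against 3 cannot go below 0.1, the value for Nppa, Nppb, Ctgf, Cyr61 and Ankrd1. They were 0.2 for Acta1, 0.9 for Myh7 and 0.5 for Yap1. Ankrd1 lost its call without stretched control 1 (adjusted p = 0.0543) or without stretched Wnt5a siRNA 3 (adjusted p = 0.0579).

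**Figure D1:**
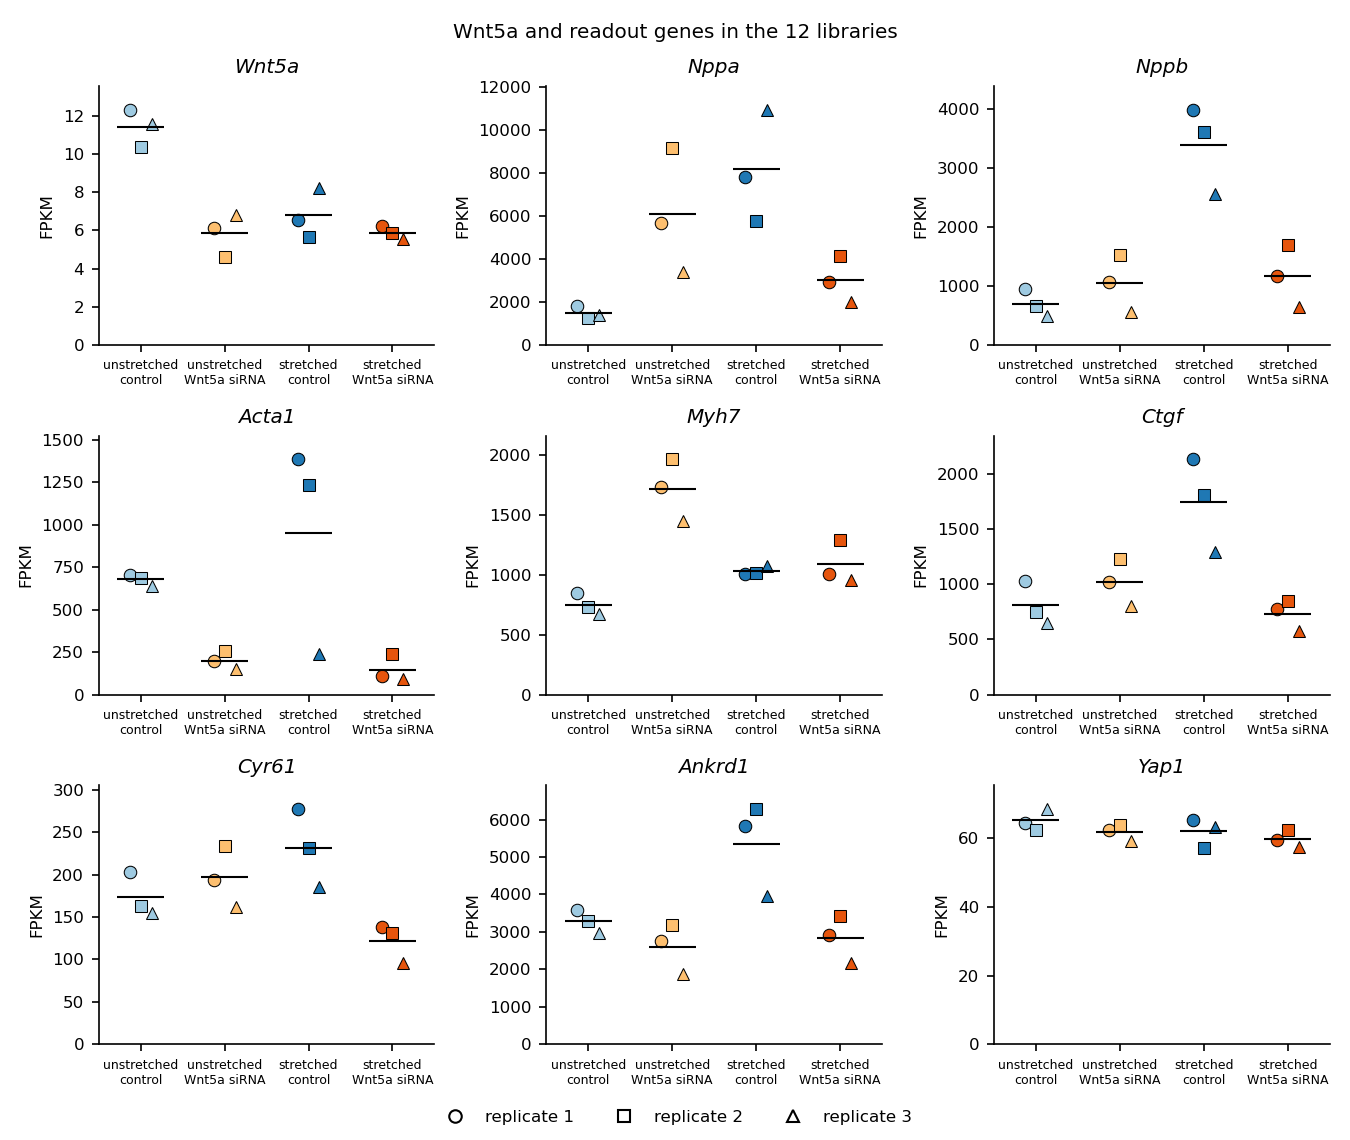
FPKM of Wnt5a and the 8 readout genes in the 12 libraries; points are libraries (shape gives the replicate number), horizontal lines are group means and each vertical axis starts at 0. Nppa, Nppb, Ctgf, Cyr61 and Ankrd1 show 3 stretched Wnt5a siRNA libraries below all 3 stretched controls, and stretched control 3 (triangle) of Acta1 lies at 238 FPKM beside the siRNA libraries.

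Promoters of 4 of the 8 readouts, chosen because they hold a motif, and of 4 further genes are shown to give the letters behind the readouts and behind the gene groups described further on. Each line holds the 200 bases before the start site from RefSeq, build GRCr8, 5′ to 3′ on the strand of the gene. Capitals mark letters of the motifs searched on both strands. These were the MCAT element GGAATG read by TEAD factors, the CArG box read by SRF, the cyclic AMP response element TGACGTCA, the AP-1 element TGANTCA, and the core of the interferon-stimulated response element, which is TTTC and again TTTC with any 2 letters between. Egr2, Ier2, Oas1a and Bst2 were chosen for this display after their values were seen.
Ctgf at chr1:22624615-22624814, minus strand: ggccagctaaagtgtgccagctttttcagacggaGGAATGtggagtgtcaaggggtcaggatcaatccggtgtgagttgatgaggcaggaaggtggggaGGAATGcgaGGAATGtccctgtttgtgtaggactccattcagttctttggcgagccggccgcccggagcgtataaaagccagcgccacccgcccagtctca
Cyr61 at chr2:237225690-237225889, minus strand: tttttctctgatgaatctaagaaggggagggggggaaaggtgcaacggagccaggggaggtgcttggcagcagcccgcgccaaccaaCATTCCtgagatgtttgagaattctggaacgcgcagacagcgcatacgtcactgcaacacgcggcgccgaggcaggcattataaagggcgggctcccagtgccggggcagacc
Nppb at chr5:163699808-163700007, plus strand: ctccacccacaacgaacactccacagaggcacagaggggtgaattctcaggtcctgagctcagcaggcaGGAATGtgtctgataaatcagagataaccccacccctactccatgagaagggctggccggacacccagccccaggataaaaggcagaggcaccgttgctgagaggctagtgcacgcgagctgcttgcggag
Acta1 at chr19:68784195-68784394, minus strand: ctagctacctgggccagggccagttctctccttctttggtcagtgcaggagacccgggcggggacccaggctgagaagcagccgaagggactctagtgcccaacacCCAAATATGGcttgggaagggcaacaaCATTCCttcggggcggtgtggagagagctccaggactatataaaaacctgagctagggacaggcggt
Egr2 at chr20:21054442-21054641, minus strand: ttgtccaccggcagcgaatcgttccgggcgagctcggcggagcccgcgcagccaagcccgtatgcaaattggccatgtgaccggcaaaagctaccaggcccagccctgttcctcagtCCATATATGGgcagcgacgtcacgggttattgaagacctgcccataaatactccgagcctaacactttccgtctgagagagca
Ier2 at chr19:40399173-40399372, plus strand: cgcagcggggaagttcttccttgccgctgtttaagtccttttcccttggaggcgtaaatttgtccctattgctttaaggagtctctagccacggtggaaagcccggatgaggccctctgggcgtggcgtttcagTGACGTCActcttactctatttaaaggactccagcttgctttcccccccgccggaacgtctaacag
Oas1a at chr12:41330266-41330465, plus strand: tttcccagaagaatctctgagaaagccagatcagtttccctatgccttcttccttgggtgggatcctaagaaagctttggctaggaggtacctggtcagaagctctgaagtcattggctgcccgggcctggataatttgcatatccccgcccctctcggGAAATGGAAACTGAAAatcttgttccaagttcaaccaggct
Bst2 at chr16:18254968-18255167, minus strand: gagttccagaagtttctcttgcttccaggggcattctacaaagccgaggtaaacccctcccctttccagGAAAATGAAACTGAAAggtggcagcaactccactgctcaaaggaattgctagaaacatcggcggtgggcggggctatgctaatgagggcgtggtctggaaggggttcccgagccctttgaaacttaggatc

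Ctgf held 3 MCAT elements, the nearest beginning 92 bases before the start. Cyr61, Nppb and Acta1 held 1 each, and Acta1 also held a CArG box. Of the readouts not shown, Yap1 held 1 MCAT element in the same 200 bases, and no searched motif was matched in those of Nppa and Myh7. Ankrd1 was not matched to the table. Egr2 held a CArG box and Ier2 a cyclic AMP response element. Oas1a and Bst2 each held a pair of interferon cores that share 4 letters. Over the 300 bases from 250 before to 50 after the start, 8546 of the 10518 tested genes had a promoter in the RefSeq table. The MCAT element was present in 11.2% of these, in 12.8% of promoters of genes called lower and in 12% of those called higher. It was present in 6 of 18 promoters of YAP and TEAD targets and in 9 of 20 of SRF and MRTF targets. The CArG box was present in 1.23% of tested genes, 1.62% of genes called lower and 1.28% of genes called higher. It was present in 5 of 20 promoters of SRF and MRTF targets and in 4 of 19 immediate early promoters. The cyclic AMP response element was present in 3.35% of tested, 4.69% of lower and 1.82% of higher genes. The AP-1 element was present in 4.87% of tested, 5.18% of lower and 4.01% of higher genes. The interferon core was present in 2.81% of tested, 2.27% of lower and 4.20% of higher genes, and in 18 of 27 promoters of the interferon list. These matches are descriptions of letters and not of bound sites.

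Over all genes, Wnt5a siRNA under stretch gave 1386 higher and 1489 lower genes, 13.2% and 14.2% of the 10518 tested. By at least 2-fold, 95 of them were higher and 86 lower. Without stretched control 3 the counts were 2288 higher and 2380 lower, 21.8% and 22.6%, with 198 and 171 by at least 2-fold. Of the genes called with all libraries, 1333 higher and 1452 lower ones were also called without it, and none changed sign. Without stretched control 1 the counts were 515 higher and 587 lower, without stretched control 2 they were 787 and 861, and without stretched Wnt5a siRNA 1 or 3 they were 803 and 904 or 597 and 671. With the 6 stretched libraries alone, and so without the spread of the unstretched ones, the counts were 580 higher and 628 lower. At an unadjusted p under 0.05 by limma with all libraries, 2167 genes were higher and 2152 lower. In 37.6% of tested genes the 3 and 3 libraries did not overlap. The median change over all genes went from 0.0021 to 0.102 (log2) when TPM scaling was used, which gave 2187 higher and 811 lower genes, so that 72.9% of calls were higher against 48.2% in the deposited scaling.

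The largest falls included receptors, signalling brakes and growth factors. The 14 falls named here and the rises were ranked by size among genes whose groups did not overlap and which were called both with and without stretched control 3. Provisional symbols, such as those that begin with LOC or RGD, and short RNA genes were passed over. Over all tested genes the log2 changes ran from −2.48 to 5.82. Bdkrb2, the bradykinin B2 receptor, was at 31.4, 17.6 and 21.7 FPKM in the stretched control and 5.88, 9.48 and 3.08 FPKM with Wnt5a siRNA (log2 change −1.84 ± 0.31). These groups were far apart, and the unstretched control was at 1.26 ± 0.327 FPKM (SD, n = 3). Noct, which encodes nocturnin of the deadenylase family, was at 18.6, 11.7 and 5.81 FPKM in the stretched control and 2.705, 3.29 and 2.05 FPKM with Wnt5a siRNA (log2 change −1.71 ± 0.29). Lmcd1, a LIM protein of the calcineurin route, was at 255, 189 and 136 FPKM in the stretched control and 60.5, 84.7 and 39.4 FPKM with Wnt5a siRNA (log2 change −1.65 ± 0.27). The siRNA libraries of both lay near the unstretched control means of 2.37 ± 0.0819 and 55.9 ± 10.1 FPKM. Gadd45g, a stress sensor, was at 321, 243 and 122 FPKM in the stretched control and 67.5, 99.5 and 46.3 FPKM with Wnt5a siRNA (log2 change −1.63 ± 0.34). Rcan1, the feedback inhibitor of calcineurin, was at 429, 374 and 190.2 FPKM in the stretched control and 102, 132 and 78.9 FPKM with Wnt5a siRNA (log2 change −1.603 ± 0.30). Stretched control 3 was the lowest control in each of Noct, Lmcd1, Gadd45g and Rcan1.

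Further falls lay in secreted factors and enzymes. Hbegf, a heparin-binding ligand of the EGF receptor, was at 117, 119.5 and 58.4 FPKM in the stretched control and 30.7, 46.7 and 21.7 FPKM with Wnt5a siRNA (log2 change −1.54 ± 0.31). Ptgs2, the inducible cyclooxygenase, was at 14.5, 13.9 and 12.3 FPKM in the stretched control and 4.99, 5.43 and 3.42 FPKM with Wnt5a siRNA (log2 change −1.39 ± 0.18), with a narrow spread in both groups. Prss23, a secreted serine protease, was at 646, 606 and 368 FPKM in the stretched control and 189, 244 and 153 FPKM with Wnt5a siRNA (log2 change −1.44 ± 0.22). Bdkrb2 had the largest and Ptgs2 the smallest of the 14 falls. The others of the 14 were Krt80, a keratin (−1.58 ± 0.37), Dusp26, a phosphatase of MAP kinases (−1.55 ± 0.31), Akip1, a binding protein of protein kinase A (−1.45 ± 0.25), and Cyp26b1, an enzyme that degrades retinoic acid (−1.45 ± 0.23), besides Nppa and Nppb. Krt80 lost its call without stretched control 1 (adjusted p = 0.0555) or without stretched Wnt5a siRNA 3 (adjusted p = 0.0537).

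The largest rises included genes of muscle metabolism, secreted factors and an imprinted RNA, chosen by the same rule. Car3, the carbonic anhydrase of slow muscle and fat, was at 1.504, 3.47 and 4.86 FPKM in the stretched control and 24.8, 18.2 and 24.2 FPKM with Wnt5a siRNA, a log2 change of 2.52 ± 0.31 (adjusted p = 0.0013 by limma). H19, an imprinted long non-coding RNA, was at 22.1, 27.7 and 30.8 FPKM in the stretched control and 132, 98.3 and 111 FPKM with Wnt5a siRNA (log2 change 2.04 ± 0.19) (adjusted p = 0.00022). G0s2, the inhibitor of adipose triglyceride lipase, was at 27.2, 38.8 and 48.5 FPKM in the stretched control and 139.5, 127 and 144 FPKM with Wnt5a siRNA (log2 change 1.85 ± 0.18), and the unstretched control was at 143 ± 28.2 FPKM. Mb, myoglobin, was at 24.5, 60.6 and 49.6 FPKM in the stretched control and 140.3, 142 and 157 FPKM with Wnt5a siRNA (log2 change 1.78 ± 0.42), and the unstretched control at 131 ± 58.7. For both genes the stretched siRNA libraries lay near the unstretched control, and the stretched controls lay below. Mb lost its call without stretched control 1 (adjusted p = 0.0537).

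Casq1, the calsequestrin of skeletal muscle, was at 20.9, 21.4 and 72.1 FPKM in the stretched control and 96.7, 107 and 78.6 FPKM with Wnt5a siRNA (log2 change 1.51 ± 0.34), and stretched control 3 lay just below the siRNA range. Serpinf1, the secreted factor PEDF, was at 45.5, 37.8 and 97.3 FPKM in the stretched control and 157, 147 and 164 FPKM with Wnt5a siRNA (log2 change 1.48 ± 0.26). Cilp, a cartilage matrix protein also made by cardiac fibroblasts, was at 2.51, 3.18 and 5.07 FPKM in the stretched control and 11.7, 10.8 and 14.2 FPKM with Wnt5a siRNA (log2 change 1.56 ± 0.20). Ifi27l2b, an interferon-inducible gene, was at 72.6, 52.7 and 127 FPKM in the stretched control and 222, 206 and 225 FPKM with Wnt5a siRNA (log2 change 1.46 ± 0.27). Mt1a, a metallothionein, was at 1.45, 0.649 and 4.26 FPKM in the stretched control and 11.7, 5.31 and 10.2 FPKM with Wnt5a siRNA (log2 change 1.804 ± 0.41), with the siRNA libraries as spread as the controls. Changes of the others were 1.59 for Akr1cl, 1.58 for the orphan nuclear receptor Nr0b2, 1.54 for Fam180a, 1.51 for the myosin Myo7a, 1.501 for the smoothelin-like Smtnl2 and 1.45 for the basement membrane protein Frem2. Casq1 lost its call with the 6 stretched libraries alone (adjusted p = 0.0522).

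**Figure D2:**
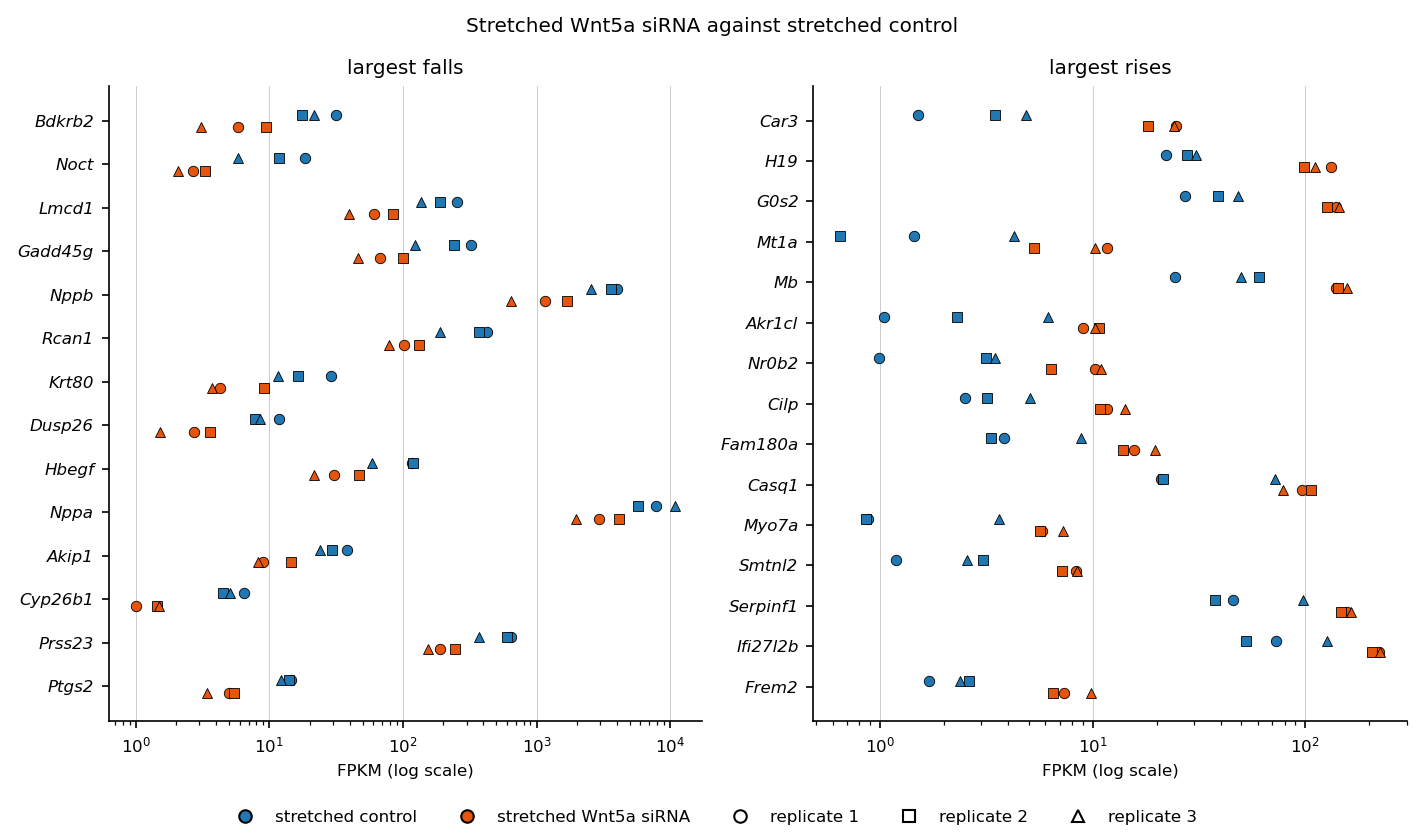
FPKM (log axis) of 14 genes with the largest falls and 15 with the largest rises in the 6 stretched libraries; blue points are stretched control and orange points stretched Wnt5a siRNA libraries, with the shape giving the replicate number. The groups do not overlap in any of these genes, which the rule required, and stretched control 3 (blue triangle) is the control nearest the siRNA libraries in 10 of the falls and 12 of the rises.

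Genes were then read in 37 lists of pathways and gene groups, beside 8 lists of cell type markers. A list's counts with all libraries are set against the 13.2% higher and 14.2% lower of all genes. In 7 lists, namely beta-catenin pathway, Hippo components, calcium handling, citrate cycle, glycolysis, sterol synthesis and NRF2 genes, both shares lay within 10 percentage points of these, and their counts are no result about the list. Where no member of a list is called in a direction, none was at an unadjusted p under 0.05 by limma either, apart from 2 higher EGF family, 2 higher creatine kinase and 2 lower fatty acid genes and 1 lower erythroid marker. Counts of higher and lower members under another normalization, without a library or with the 6 stretched libraries alone are given where they moved by over 1.5 times and by at least 3 genes. These belong beside the counts of all genes in the same setting, which moved too. Without stretched control 3, 21.8% of all genes were higher and 22.6% lower. All 10518 genes gave 580 higher and 628 lower with the 6 stretched libraries alone, and 2187 and 811 under TPM scaling. A list count near the share of all genes in its setting is no result about the list. With the 6 stretched libraries alone 43 of 90 list counts moved by over 1.5 times, and 24 of the 169 called genes named here lost their call.

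Immediate early genes, transcription factors and regulators induced within minutes of many stimuli, fell together with Wnt5a siRNA. Of 29 tested, 23 were called lower and 1 higher, against 14.2% and 13.2% of all genes, and their median change was −0.83 against 0.0021 for all genes. Junb, an AP-1 subunit, was at 58.4, 53.96 and 43.1 FPKM in the stretched control and 29.1, 29.9 and 24.7 FPKM with Wnt5a siRNA (log2 change −0.86 ± 0.10). Ier2, a growth factor response gene, was at 63.5, 64.9 and 39.02 FPKM in the stretched control and 28.01, 29.8 and 22.8 FPKM with Wnt5a siRNA (log2 change −1.0 ± 0.16). Bhlhe40, a repressor that also belongs to the clock, was at 87.3, 79.7 and 66.6 FPKM in the stretched control and 41.7, 51.5 and 41.5 FPKM with Wnt5a siRNA (log2 change −0.78 ± 0.11). No siRNA library of these genes reached a control library. Fos, the partner of Junb, had a log2 change of −0.73 ± 0.12, Egr2 of −1.06 ± 0.22 and Egr3, a zinc finger factor, of −1.32 ± 0.25, and these were chosen after their values were seen. Klf2, a factor induced by flow in vessels, was the called member that rose, at 11.6, 9.15 and 9.59 FPKM in the stretched control and 17.7, 17.2 and 17.00 FPKM with Wnt5a siRNA (log2 change 0.73 ± 0.09).

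The count of lower immediate early genes was 26 of 29 without stretched control 3, and it stayed within 17 to 26 when any 1 library was left out. Quantile normalization gave 24 and TPM scaling 23. Without stretch the siRNA gave 2 higher and 3 lower members. The siRNA change differed between stretched and unstretched cells for 12 members, all of them more negative under stretch, against 23.8% of all genes with such a difference in either direction. Without stretched control 3 it differed for 23 members.

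Feedback genes of the MAP kinases moved the same way. Dusp1, a nuclear phosphatase of these kinases, was at 103, 84.7 and 64.7 FPKM in the stretched control and 41.8, 39.6 and 35.9 FPKM with Wnt5a siRNA (log2 change −1.06 ± 0.13). Dusp6, the phosphatase of ERK, was at 49.1, 56.5 and 41.8 FPKM in the stretched control and 26.5, 29.3 and 17.9 FPKM with Wnt5a siRNA (log2 change −0.99 ± 0.16). Spry2 and Spry4, sprouty inhibitors of receptor signalling, changed by −0.59 ± 0.10 and −0.69 ± 0.13. Of 20 tested, 9 were called lower and 0 higher. The lower count was 5 under TPM scaling or with the 6 stretched libraries alone or without stretched control 1 or stretched Wnt5a siRNA 1. Of the 8 tested EGF family ligands and ErbB receptors, 3 were lower and none higher. These were the ligands Hbegf, Areg and Tgfa, with changes of −1.54 ± 0.31, −1.38 ± 0.29 and −0.69 ± 0.16. Tgfa lost its call without stretched control 1 (adjusted p = 0.056).

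Targets of SRF and its co-activator MRTF were called lower in 19 of 25 tested and higher in none, with a median of −0.49. Myl9, a regulatory myosin light chain, was at 1475, 1477 and 927 FPKM in the stretched control and 615, 660.3 and 578 FPKM with Wnt5a siRNA (log2 change −1.03 ± 0.17). Cnn1, calponin 1 of contractile smooth muscle, was at 363, 235 and 325 FPKM in the stretched control and 123, 160.4 and 96.6 FPKM with Wnt5a siRNA (log2 change −1.28 ± 0.23). Tpm2 and Tagln2, actin-binding proteins, changed by −0.596 ± 0.12 and −0.45 ± 0.10. Genes called lower numbered 21 without stretched control 3. It was 6 without stretched control 1, 7 without stretched Wnt5a siRNA 3, 10 with the 6 stretched libraries alone, 11 without stretched control 2 and 12 after quantile normalization. Tagln2 lost its call after quantile normalization (adjusted p = 0.117).

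Genes of integrins and focal adhesions, the sites where cells hold the matrix, fell as a group. Of 25 tested, 18 were lower and none higher, with a median of −0.44. Actn1, an alpha-actinin that links actin to adhesions, was at 571, 404 and 345 FPKM in the stretched control and 200.3, 242 and 172 FPKM with Wnt5a siRNA (log2 change −1.08 ± 0.20). Cav3, the caveolin of muscle, was at 315, 305 and 197 FPKM in the stretched control and 148, 157 and 144 FPKM with Wnt5a siRNA (log2 change −0.83 ± 0.14). Itgb1bp2, the muscle chaperone melusin, was at 171, 169 and 124 FPKM in the stretched control and 88.6, 109 and 77.2 FPKM with Wnt5a siRNA (log2 change −0.75 ± 0.15). In each of these genes stretched control 3 was the lowest control. Tns1, a tensin, changed by −0.62 ± 0.11. Counted again, the lower genes were 19 without stretched control 3 and 8 without stretched control 1, 10 with the 6 stretched libraries alone or without stretched control 2 or stretched Wnt5a siRNA 3 and 11 without stretched Wnt5a siRNA 1.

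Sarcomere and Z disc genes were called lower in 17 of 37 and higher in 4. Des, desmin, the intermediate filament of muscle, was at 1578, 1088 and 1203 FPKM in the stretched control and 494, 711 and 482 FPKM with Wnt5a siRNA (log2 change −1.201 ± 0.16). Cryab, its small chaperone, was at 3051, 2677 and 2118 FPKM in the stretched control and 1511, 1599 and 1160.3 FPKM with Wnt5a siRNA (log2 change −0.87 ± 0.17). Every siRNA library was below every control for both genes. Myoz2, a Z disc protein that binds calcineurin, changed by −0.81 ± 0.13. Myl4, the atrial and embryonic light chain, went the other way, at 53.1, 54.1 and 40.8 FPKM in the stretched control and 109, 95.9 and 79.3 FPKM with Wnt5a siRNA (log2 change 0.93 ± 0.12). Actc1, cardiac alpha-actin and the most abundant of these transcripts, was at 18338, 18628 and 13569 FPKM in the stretched control and 8353, 11437 and 6565 FPKM with Wnt5a siRNA (log2 change −0.96 ± 0.22). It was the most abundant gene in every stretched library, which fixes its value at 0 under quantile normalization. Actc1 also lost its call without stretched Wnt5a siRNA 3 (adjusted p = 0.0505 by limma). Such lower genes numbered 8 without stretched Wnt5a siRNA 3, 10 after quantile normalization or with the 6 stretched libraries alone or without stretched control 1 and 28 without stretched control 3. Summed FPKM of 11 cardiomyocyte markers lay between 22471 and 23734 in the stretched control and between 12408 and 16979.8 in the siRNA libraries. Nppa, a readout lower with the siRNA and highest in stretched control 3, made part of these sums. The median over the markers of log2(FPKM + 1), minus the mean of the 12 libraries, did not separate the groups. It was 0.13, 0.34 and −0.49 in the stretched control and −0.50, −0.12 and −0.32 in the siRNA libraries. Stretched control 3 thus lay within the siRNA range. The part of these markers in the result was not tested.

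Keratins and other intermediate filaments were lower in 7 of 12 and higher in 2. Nes, nestin, was at 38.6, 34.3 and 33.1 FPKM in the stretched control and 23.7, 23.4 and 14.7 FPKM with Wnt5a siRNA (log2 change −0.78 ± 0.15), and Krt80 at 29.1, 16.4 and 11.6 FPKM in the stretched control and 4.24, 9.12 and 3.71 FPKM with Wnt5a siRNA (log2 change −1.58 ± 0.37). Krt19, an epithelial keratin, was higher, at 1.52, 1.17 and 0.958 FPKM in the stretched control and 3.52, 2.59 and 4.22 FPKM with Wnt5a siRNA (log2 change 0.995 ± 0.21), and its level was low throughout. On the lower side the count was 2 without stretched control 1 and 3 without stretched Wnt5a siRNA 1 or stretched Wnt5a siRNA 3. Without stretch 6 members were higher and 1 lower, and the siRNA change differed between the states for 8, each more negative under stretch.

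The list of YAP and TEAD targets, which holds the readouts Ctgf, Cyr61 and Ankrd1, had 11 lower and 4 higher members of 24. Beyond these 3 readouts, 8 of 21 were lower and 4 higher, and 11 were lower without stretched control 3. Tgfb2, a TGF-beta ligand, was at 236, 204 and 163 FPKM in the stretched control and 82.4, 111 and 62.7 FPKM with Wnt5a siRNA (log2 change −1.25 ± 0.21). Gadd45a, a stress sensor, was at 126, 134 and 87.01 FPKM in the stretched control and 59.6, 67.5 and 57.7 FPKM with Wnt5a siRNA (log2 change −0.88 ± 0.14). No siRNA library of these genes reached the range of the controls. Over all 24, the lower count was 14 without stretched control 3 and 6 without stretched control 1 and 7 without stretched Wnt5a siRNA 3. The higher count was 1 with the 6 stretched libraries alone or without stretched control 1 or stretched Wnt5a siRNA 3. Of the Hippo pathway components that govern YAP, 2 were higher and 2 lower of 20. Tead2, a TEAD factor, was at 15.97, 14.2 and 17.3 FPKM in the stretched control and 24.3, 21.01 and 25.7 FPKM with Wnt5a siRNA (log2 change 0.55 ± 0.09). Tead3, another, was at 40.9, 36.4 and 24.96 FPKM in the stretched control and 24.3, 23.5 and 24.2 FPKM with Wnt5a siRNA (log2 change −0.46 ± 0.14). Dchs1, a large cadherin, changed by 0.43 ± 0.09 and the kinase Taok1 by −0.197 ± 0.07. Without stretched control 3, 5 components were lower. Tead3 lost its call without any stretched library other than stretched control 3, under TPM scaling or with the 6 stretched libraries alone (adjusted p 0.0534 to 0.131). The call of Taok1 was lost without any stretched library other than stretched control 3, after quantile normalization, under TPM scaling, with no trend in the variance or with the 6 stretched libraries alone (adjusted p 0.0628 to 0.363).

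Genes of the TGF-beta and BMP response were lower in 12 of 24 and higher in 2, with a median of −0.48. Inhba, which encodes activin A, was at 84.5, 82.5 and 81.4 FPKM in the stretched control and 49.96, 51.1 and 41.9 FPKM with Wnt5a siRNA (log2 change −0.79 ± 0.13). Fst, its antagonist follistatin, was at 66.9, 57.3 and 34.6 FPKM in the stretched control and 20.9, 24.2 and 19.5 FPKM with Wnt5a siRNA (log2 change −1.21 ± 0.21). The controls of Inhba lay close together, and those of Fst were spread. The lower count stayed within 9 to 13 when any 1 library was left out, and the higher count was 5 without stretched control 3. The siRNA change differed between the states for 15 members, 12 of them more negative under stretch. Extracellular matrix genes were higher in 9 and lower in 5 of 37, and the lower share lay near the 14.2% of all genes. Thbs1, thrombospondin 1, was at 1269, 1151 and 963 FPKM in the stretched control and 545, 571 and 447 FPKM with Wnt5a siRNA (log2 change −1.11 ± 0.16), and Lamc1, the laminin gamma 1 chain, and Plod2, a collagen lysyl hydroxylase, changed by −0.502 ± 0.10 and −0.51 ± 0.11. Mmp2, a gelatinase of fibroblasts, was higher, at 297, 342 and 356 FPKM in the stretched control and 446, 469.5 and 459.9 FPKM with Wnt5a siRNA (log2 change 0.47 ± 0.09). Genes called higher numbered 2 with the 6 stretched libraries alone or without stretched control 1, 3 without stretched Wnt5a siRNA 3, 5 without stretched Wnt5a siRNA 1 and 15 without stretched control 3. Summed FPKM of 16 fibroblast markers lay between 4939 and 8503 in the stretched control, where stretched control 3 was the highest, and 8968 to 9589 in the siRNA libraries. Of these markers Col1a2 was listed at 0 in all stretched libraries. Their part in the matrix result was not tested.

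**Figure D3:**
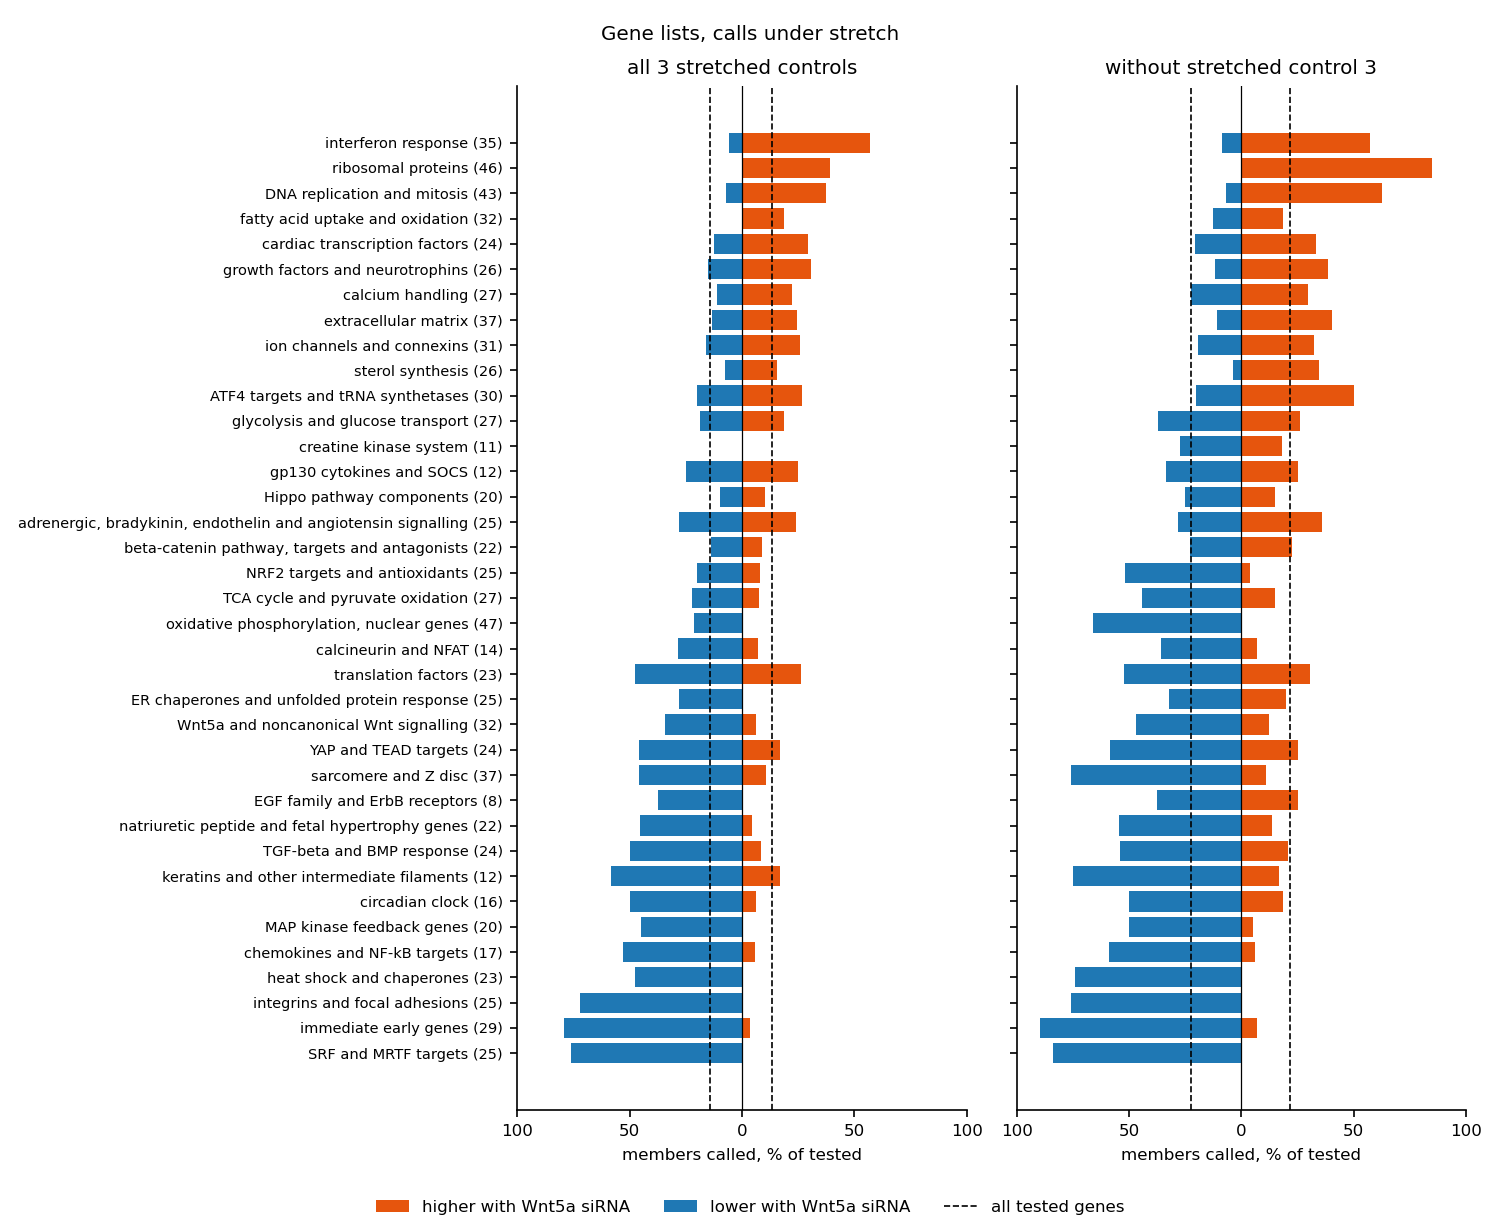
Share of tested members called higher (orange, to the right) or lower (blue, to the left) with Wnt5a siRNA under stretch in each gene list (tested members in brackets), with all libraries on the left and without stretched control 3 on the right; dashed lines mark the share over all tested genes. With all libraries, immediate early, SRF and focal adhesion genes reach farthest to the lower side, with 23 of 29, 19 of 25 and 18 of 25. Interferon response genes reach farthest to the higher side there, with 20 of 35. Without stretched control 3, ribosomal proteins (39 of 46) and DNA replication and mitosis genes (27 of 43) reach farther to the higher side than interferon response genes (20 of 35).

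Genes of Wnt5a and noncanonical Wnt signalling were lower in 11 of 32 and higher in 2, by small steps. Prickle1, a planar polarity protein, was at 58.2, 55.8 and 50.5 FPKM in the stretched control and 40.4, 41.7 and 37.6 FPKM with Wnt5a siRNA (log2 change −0.45 ± 0.07). Rac1 and Cdc42, GTPases that shape actin, changed by −0.28 ± 0.06 and −0.28 ± 0.06, and Rock1, a kinase that promotes contraction of actomyosin, by −0.29 ± 0.06. The receptors Fzd5 and Ror1 changed by −0.73 ± 0.17 and −0.66 ± 0.15, and these and Ror2 were chosen after their values were seen. Ror2 was at 16.2, 16.4 and 17.4 FPKM in the stretched control and 15.6, 19.6 and 17.6 FPKM with Wnt5a siRNA (log2 change 0.07 ± 0.12, adjusted p = 0.687 by limma). The lower count was 5 under TPM scaling, 6 after quantile normalization or without stretched control 1 and 7 with the 6 stretched libraries alone or without stretched Wnt5a siRNA 3. Of the beta-catenin pathway, its targets and antagonists, 2 of 22 were higher and 3 lower. Nkd1, a feedback inhibitor of Wnt signals, was at 0.755, 0.629 and 0.848 FPKM in the stretched control and 2.17, 1.73 and 2.72 FPKM with Wnt5a siRNA (log2 change 0.87 ± 0.13). The nuclear partner Tcf7l2 changed by 0.46 ± 0.09, the target cyclin gene Ccnd1 by −0.49 ± 0.12 and the receptor Lgr4 by −0.45 ± 0.12. Without stretched control 3, 5 members were higher. Rac1 lost its call after quantile normalization (adjusted p = 0.136) or under TPM scaling (adjusted p = 0.0607). The call of Cdc42 was lost after quantile normalization, under TPM scaling or with the 6 stretched libraries alone (adjusted p 0.0565 to 0.233). Rock1 did not pass under TPM scaling (adjusted p = 0.0535). Ror1 was no longer called without stretched control 1 (adjusted p = 0.0514). Ccnd1 lost its call without stretched Wnt5a siRNA 3, after quantile normalization or with the 6 stretched libraries alone (adjusted p 0.0543 to 0.0708). The call of Lgr4 was lost without stretched control 1, stretched control 2 or stretched Wnt5a siRNA 1 or with the 6 stretched libraries alone (adjusted p 0.0567 to 0.0666).

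Receptors and accessory proteins of vasoactive hormones moved both ways, with 6 higher and 7 lower of 25. Ramp3, an accessory protein of adrenomedullin receptors, was at 25.6, 21.3 and 10.9 FPKM in the stretched control and 6.303, 8.83 and 5.53 FPKM with Wnt5a siRNA (log2 change −1.31 ± 0.24). Adra1a, the alpha-1A adrenergic receptor, was at 24.97, 22.1 and 27.00 FPKM in the stretched control and 12.1, 16.1 and 11.5 FPKM with Wnt5a siRNA (log2 change −0.86 ± 0.17). Stretched control 3 was the lowest control for Ramp3 and the highest for Adra1a. Ednra, the endothelin A receptor, was higher, at 14.3, 21.3 and 16.6 FPKM in the stretched control and 26.8, 26.9 and 29.6 FPKM with Wnt5a siRNA (log2 change 0.66 ± 0.12). Counted again, the higher genes were 3 without stretched control 1, stretched control 2, stretched Wnt5a siRNA 1 or stretched Wnt5a siRNA 3, and the lower count was 4 with the 6 stretched libraries alone or without stretched control 1. In the calcineurin and NFAT list 4 of 14 were lower and 1 higher. Rcan1, Myoz2 and Nfatc2 (log2 change −0.65 ± 0.17) were among the lower ones, and Rcan2, a second calcineurin regulator, was higher, at 15.2, 20.2 and 25.1 FPKM in the stretched control and 30.6, 32.8 and 36.5 FPKM with Wnt5a siRNA (log2 change 0.72 ± 0.14). Fhl1, a LIM protein of the sarcomere, was at 1000.3, 868 and 983 FPKM in the stretched control and 399.7, 589.9 and 313 FPKM with Wnt5a siRNA (log2 change −1.18 ± 0.25), so that each siRNA library was far below the controls. Its list, natriuretic peptide and fetal hypertrophy genes, had 10 lower and 1 higher members of 22, and the lower count was 3 without stretched Wnt5a siRNA 3 and 5 without stretched control 1. This list and those of SRF targets and sarcomere genes hold the readout Acta1, so their counts are not separate from the readouts. Nfatc2 lost its call without stretched control 1, stretched Wnt5a siRNA 1 or stretched Wnt5a siRNA 3 or with the 6 stretched libraries alone (adjusted p 0.0537 to 0.0725).

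Ion channel and connexin genes were higher in 8 and lower in 5 of 31. Gja1, connexin 43 of the cell junctions, was at 348, 386 and 259 FPKM in the stretched control and 159, 181 and 172 FPKM with Wnt5a siRNA (log2 change −0.93 ± 0.12), about the level of the unstretched siRNA libraries (187 ± 15.3 FPKM). Kcnh2, the channel of the rapid delayed rectifier current, was at 12.8, 17.3 and 17.6 FPKM in the stretched control and 28.1, 29.2 and 32.7 FPKM with Wnt5a siRNA (log2 change 0.88 ± 0.11), and Kcnj12, an inward rectifier, rose from a low level, by 1.08 ± 0.14. Trpc6, a receptor-operated cation channel, changed by −0.79 ± 0.14. Such higher genes numbered 5 without stretched control 1, and 2 were lower with the 6 stretched libraries alone. Calcium handling genes were higher in 6 and lower in 3 of 27. Cacna1g, a T-type calcium channel, was at 25.5, 36.2 and 34.7 FPKM in the stretched control and 52.3, 61.2 and 65.7 FPKM with Wnt5a siRNA (log2 change 0.88 ± 0.12). Slc8a1, the sodium-calcium exchanger, was at 425, 415 and 268 FPKM in the stretched control and 200.4, 245 and 201 FPKM with Wnt5a siRNA (log2 change −0.75 ± 0.16), with stretched control 3 nearest the siRNA libraries, and Atp2b1, a plasma membrane calcium pump, changed by −0.403 ± 0.08. On the higher side the count was 2 with the 6 stretched libraries alone and 3 without stretched control 1 or stretched Wnt5a siRNA 3, and the lower count was 6 without stretched control 3.

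Cardiac transcription factors were higher in 7 of 24 and lower in 3. Irx4, a factor of ventricular identity, was at 8.45, 9.67 and 9.95 FPKM in the stretched control and 22.4, 20.5 and 26.8 FPKM with Wnt5a siRNA (log2 change 1.22 ± 0.16). Hopx, a homeodomain partner of SRF, was at 11.6, 11.7 and 16.4 FPKM in the stretched control and 33.2, 27.97 and 36.4 FPKM with Wnt5a siRNA (log2 change 1.25 ± 0.22), and Tbx20 changed by 0.49 ± 0.08. Ppargc1a, the co-activator PGC-1alpha of mitochondrial genes, was at 8.34, 11.2 and 10.3 FPKM in the stretched control and 15.1, 16.3 and 19.7 FPKM with Wnt5a siRNA (log2 change 0.72 ± 0.13). For all 3 the siRNA libraries lay above the range of the controls. Genes called lower numbered 0 with the 6 stretched libraries alone or without stretched control 1, stretched control 2 or stretched Wnt5a siRNA 1. Without stretch none of the 24 was higher and 9 were lower, and for 9 the siRNA change differed between the states, each more positive under stretch.

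Genes of fatty acid uptake and oxidation, the main fuel route of the mature heart, had few calls under stretch. Of 32, 6 were higher and none lower, with a median of 0.05. Hadh, a dehydrogenase of beta-oxidation, was at 7.95, 11.1 and 14.2 FPKM in the stretched control and 21.1, 23.4 and 28.4 FPKM with Wnt5a siRNA (log2 change 1.09 ± 0.20). Acsl1, which activates fatty acids, was at 6.56, 7.86 and 11.8 FPKM in the stretched control and 14.8, 15.9 and 24.6 FPKM with Wnt5a siRNA (log2 change 0.998 ± 0.27). Stretched control 3 was the highest control for both. The higher count was 2 without stretched control 1 or stretched Wnt5a siRNA 3 and 3 without stretched Wnt5a siRNA 1, and without stretched control 3 the list had 4 lower members and a median of −0.04. Without stretch 27 of the 32 were lower with the siRNA and none higher, with a median of −0.75. The siRNA change differed between the states for 25, all more positive under stretch. Acsl1 lost its call without stretched control 1, stretched control 2 or stretched Wnt5a siRNA 3 (adjusted p 0.0611 to 0.0892).

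Nuclear genes of oxidative phosphorylation were lower in 10 of 47 and higher in none. Ndufa4, a subunit of the respiratory chain, was at 509.9, 572 and 473 FPKM in the stretched control and 280.04, 268 and 233 FPKM with Wnt5a siRNA (log2 change −0.99 ± 0.08). Ndufb9, of complex I, was at 695, 698 and 682 FPKM in the stretched control and 528, 515 and 422 FPKM with Wnt5a siRNA (log2 change −0.51 ± 0.09). The groups did not overlap for either gene. Cox6a2, the muscle form of a cytochrome oxidase subunit, and Ndufb5 changed by −0.35 ± 0.09 and −0.27 ± 0.07. Counted again, the lower genes were 2 with the 6 stretched libraries alone or without stretched Wnt5a siRNA 3, 3 after quantile normalization or under TPM scaling or without stretched control 1 or stretched control 2, 4 without stretched Wnt5a siRNA 1, 6 without stretched Wnt5a siRNA 2 and 31 without stretched control 3. Without stretch 42 of these genes were lower. In the list of the citrate cycle and pyruvate oxidation 6 of 27 were lower and 2 higher. Pdha1, of pyruvate dehydrogenase, was at 298, 322 and 275 FPKM in the stretched control and 211, 231 and 210.5 FPKM with Wnt5a siRNA (log2 change −0.45 ± 0.08), and Bckdhb, of branched-chain oxidation, changed by 0.51 ± 0.11. Such lower genes numbered 1 with the 6 stretched libraries alone or without stretched control 1, stretched control 2 or stretched Wnt5a siRNA 3, 2 under TPM scaling, 3 after quantile normalization or without stretched Wnt5a siRNA 1 and 12 without stretched control 3. None of 11 genes of the creatine kinase system passed limma's test (2 higher and 0 lower at an unadjusted p under 0.05). Slc25a4, the heart adenine nucleotide carrier, was at 946, 1053 and 854 FPKM in the stretched control and 964, 956 and 1017 FPKM with Wnt5a siRNA. Ckm, muscle creatine kinase, was at 206, 292 and 112 FPKM in the stretched control and 157, 201 and 187 FPKM with Wnt5a siRNA. The groups overlapped for both. Without stretched control 3, 3 of the 11 were lower and 2 higher. Cox6a2 lost its call without stretched control 1 or stretched Wnt5a siRNA 3 or with the 6 stretched libraries alone (adjusted p 0.0542 to 0.0764). The call of Ndufb5 was lost without stretched control 2 or stretched Wnt5a siRNA 3, after quantile normalization, under TPM scaling or with the 6 stretched libraries alone (adjusted p 0.0668 to 0.184).

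Glycolysis genes were higher in 5 and lower in 5 of 27. Pfkm, muscle phosphofructokinase, was at 26.8, 39.96 and 33.7 FPKM in the stretched control and 55.6, 54.6 and 70.9 FPKM with Wnt5a siRNA (log2 change 0.84 ± 0.16), and Eno3, muscle enolase, and Pygb, a glycogen phosphorylase, changed by 0.81 ± 0.17 and 0.64 ± 0.12, while Pgam1, a mutase, changed by −0.53 ± 0.11. Without stretched control 3, 10 were lower, and with the 6 stretched libraries alone 2. Sterol synthesis genes were higher in 4 and lower in 2 of 26. Srebf1, a master factor of lipid genes, was at 10.9, 9.74 and 18.03 FPKM in the stretched control and 18.3, 18.9 and 19.7 FPKM with Wnt5a siRNA (log2 change 0.57 ± 0.17). Genes called higher numbered 0 with the 6 stretched libraries alone or without stretched control 1, stretched Wnt5a siRNA 2 or stretched Wnt5a siRNA 3, 1 without stretched control 2 or stretched Wnt5a siRNA 1 and 9 without stretched control 3. Srebf1 lost its call without any stretched library other than stretched control 3 or with the 6 stretched libraries alone (adjusted p 0.0585 to 0.11).

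Interferon response genes were higher with Wnt5a siRNA than with control siRNA in stretched cells. Of 35 tested, 20 were higher and 2 lower, with a median of 0.51. The median over members of log2(FPKM + 1), minus the mean of the 12 libraries, was −0.38, −0.34 and −0.26 in the stretched control. It was 0.10, 0.20 and 0.0046 in the stretched siRNA libraries and 0.06, 0.16 and 0.14 in the unstretched control. The stretched siRNA libraries thus lay near the unstretched control, and the stretched controls lay below. Oas1a, an oligoadenylate synthetase that senses double-stranded RNA, was at 0.319, 0.573 and 0.942 FPKM in the stretched control and 2.91, 2.35 and 2.07 FPKM with Wnt5a siRNA (log2 change 1.11 ± 0.16), and its groups were far apart at low levels. Bst2, tetherin, was at 21.7, 21.8 and 16.3 FPKM in the stretched control and 35.4, 37.8 and 33.7 FPKM with Wnt5a siRNA (log2 change 0.82 ± 0.11). Parp9, of the PARP family, was at 8.72, 10.5 and 10.9 FPKM in the stretched control and 15.5, 16.02 and 14.6 FPKM with Wnt5a siRNA (log2 change 0.58 ± 0.09). Irf9, the DNA-binding part of the interferon factor ISGF3, was at 14.9, 11.9 and 15.9 FPKM in the stretched control and 23.7, 23.4 and 24.3 FPKM with Wnt5a siRNA (log2 change 0.72 ± 0.11). Among these 4 genes no siRNA library reached a control library. Isg15, chosen after its values were seen, did not pass the test (6.76, 9.09 and 7.75 FPKM in the stretched control and 14.9, 19.9 and 10.97 FPKM with Wnt5a siRNA; adjusted p = 0.0527 by limma).

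The lower members of the interferon list were B2m, the light chain of MHC class I, and Ifitm1, an interferon-induced membrane protein. B2m was at 553, 532 and 504 FPKM in the stretched control and 437, 427 and 379 FPKM with Wnt5a siRNA (log2 change −0.36 ± 0.08), and Ifitm1 changed by −0.61 ± 0.17. Both were chosen after their values were seen. Counted again, the higher genes were 20 without stretched control 3, 14 to 20 when any 1 library was left out, and 12 by at least 1.5-fold. Without stretch 1 of the 35 was higher and 4 lower. The siRNA change differed between the states for 14, all more positive under stretch. Summed FPKM of 16 macrophage and leukocyte markers were 351, 359.9 and 592 in the stretched control and lay between 388 and 435 in the siRNA libraries, which were thus above stretched controls 1 and 2 and below stretched control 3. Of the 14 tested, 0 were called higher and 1 lower with all libraries, and 1 higher and 0 lower without stretched control 3. Adgre1 and Cd163 were under 1 FPKM in all 6. Their part in the interferon result was not tested. B2m lost its call without stretched Wnt5a siRNA 3 (adjusted p = 0.0519) or after quantile normalization (adjusted p = 0.0675). The call of Ifitm1 was lost without stretched Wnt5a siRNA 1 or stretched Wnt5a siRNA 3, after quantile normalization or with the 6 stretched libraries alone (adjusted p 0.051 to 0.0968).

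Of 23 heat shock and chaperone genes 11 were lower and none higher. Hspa1b and Hspa1a, inducible HSP70 genes that are near-identical copies and therefore uncertain, were among them. Hspa1b was at 15.7, 12.9 and 8.86 FPKM in the stretched control and 5.26, 5.77 and 4.51 FPKM with Wnt5a siRNA (log2 change −1.096 ± 0.21), and Hspa1a changed by −0.92 ± 0.19 at lower FPKM. Cct3, of the actin-folding chaperonin, was at 312, 311 and 259 FPKM in the stretched control and 219, 233 and 209.7 FPKM with Wnt5a siRNA (log2 change −0.41 ± 0.08). On the lower side the count was 6 with the 6 stretched libraries alone, 7 after quantile normalization and 17 without stretched control 3. Of 25 genes of ER folding and the unfolded protein response 7 were lower, among them Hspa5, the chaperone BiP, at 1196, 1049.8 and 1008 FPKM in the stretched control and 794, 896 and 700.1 FPKM with Wnt5a siRNA (log2 change −0.45 ± 0.09), and Edem1, Pdia3 and Dnajb11, at −0.37 ± 0.08, −0.32 ± 0.07 and −0.35 ± 0.10. The lower count was 2 with the 6 stretched libraries alone, 3 after quantile normalization or without stretched control 1 or stretched Wnt5a siRNA 3 and 4 under TPM scaling or without stretched Wnt5a siRNA 1, and 5 were higher without stretched control 3. Pdia3 lost its call after quantile normalization (adjusted p = 0.135) or with the 6 stretched libraries alone (adjusted p = 0.06). The call of Dnajb11 was lost without stretched control 1, stretched Wnt5a siRNA 1 or stretched Wnt5a siRNA 3, after quantile normalization, under TPM scaling or with the 6 stretched libraries alone (adjusted p 0.0543 to 0.125).

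Targets of ATF4 and tRNA synthetases were higher in 8 and lower in 6 of 30. In unstretched cells 22 were higher and 1 lower. The siRNA change differed between the states for 13, each more negative under stretch. Atf4, the factor itself, was at 445, 419 and 394 FPKM in the stretched control and 325, 318 and 305 FPKM with Wnt5a siRNA (log2 change −0.41 ± 0.06), below all controls. Its target Trib3, a pseudokinase, was higher, at 6.91, 6.48 and 13.9 FPKM in the stretched control and 22.6, 18.4 and 25.1 FPKM with Wnt5a siRNA (log2 change 1.25 ± 0.23). Chac1, which degrades glutathione, changed by 0.81 ± 0.15 and the transporter Slc7a1 by −0.78 ± 0.14, so that targets of one factor went both ways. Such higher genes numbered 4 with the 6 stretched libraries alone or without stretched control 1, stretched control 2, stretched Wnt5a siRNA 1 or stretched Wnt5a siRNA 3, 13 under TPM scaling and 15 without stretched control 3, and the lower count was 3 after quantile normalization or under TPM scaling. Ribosomal protein genes were higher in 18 of 46 and lower in none, with a median of 0.21. In unstretched cells 37 were higher and 0 lower, with a median of 0.33. Rpsa, the laminin-binding ribosomal protein, was at 1040.2, 979 and 1403 FPKM in the stretched control and 1695, 1526 and 1541 FPKM with Wnt5a siRNA (log2 change 0.49 ± 0.11), and Rps18, Rpl12 and Rpl15 changed by 0.35 ± 0.09, 0.299 ± 0.08 and 0.28 ± 0.07. On the higher side the count was 0 with the 6 stretched libraries alone, 1 without stretched control 1, 2 without stretched control 2 or stretched Wnt5a siRNA 1, 7 without stretched Wnt5a siRNA 3, 30 after quantile normalization, 39 without stretched control 3 and 42 under TPM scaling. These genes share reads with many pseudogenes and are uncertain. Translation factors were lower in 11 and higher in 6 of 23. Eif5, Eif4a2 and Eif1, initiation factors, changed by −0.48 ± 0.08, −0.43 ± 0.08 and −0.402 ± 0.08, and Ncl, nucleolin, by −0.37 ± 0.07. Genes called lower numbered 5 after quantile normalization, 6 without stretched control 1 or stretched Wnt5a siRNA 3 and 7 under TPM scaling or with the 6 stretched libraries alone, and the higher count was 1 with the 6 stretched libraries alone, 2 without stretched Wnt5a siRNA 1 and 3 without stretched control 1 or stretched control 2. Rpsa lost its call with the 6 stretched libraries alone (adjusted p = 0.0607). The call of Rps18 was lost without stretched control 1 (adjusted p = 0.0582) or with the 6 stretched libraries alone (adjusted p = 0.0864). Rpl12 did not pass without stretched control 1, stretched control 2 or stretched Wnt5a siRNA 1 or with the 6 stretched libraries alone (adjusted p 0.0551 to 0.0885). Rpl15 was no longer called without stretched control 1, stretched control 2 or stretched Wnt5a siRNA 1 or with the 6 stretched libraries alone (adjusted p 0.063 to 0.0826).

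DNA replication and mitosis genes were higher in 16 of 43 and lower in 3. In unstretched cells 34 were higher and 2 lower, with a median of 0.57 against 0.31 under stretch. The siRNA change differed between the states for 9. Tyms, thymidylate synthase, was at 13.7, 16.5 and 19.5 FPKM in the stretched control and 23.1, 22.4 and 25.3 FPKM with Wnt5a siRNA (log2 change 0.498 ± 0.12), and Cdk4, a kinase of the first growth phase, changed by 0.28 ± 0.06. Among the lower members were Ccnd1, its cyclin, at 128, 129 and 146 FPKM in the stretched control and 95.4, 117 and 77.4 FPKM with Wnt5a siRNA (log2 change −0.49 ± 0.12). Cdkn1a, the inhibitor p21, was at 133, 163 and 67.9 FPKM in the stretched control and 52.6, 57.7 and 59.2 FPKM with Wnt5a siRNA (log2 change −1.0 ± 0.23). The higher count was 2 with the 6 stretched libraries alone, 3 without stretched control 1, 4 without stretched control 2 or stretched Wnt5a siRNA 1, 6 without stretched Wnt5a siRNA 3, 10 without stretched Wnt5a siRNA 2 and 27 under TPM scaling or without stretched control 3, and none was lower by limma with the 6 stretched libraries alone. Heart cultures can hold dividing cells of other types, and which cells carried these transcripts was not tested. Cdk4 lost its call with the 6 stretched libraries alone (adjusted p = 0.0522). The call of Cdkn1a was lost with the 6 stretched libraries alone (adjusted p = 0.0521).

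Clock genes were lower in 8 of 16 and higher in 1. Noct, named above for its fall, is a member, so the count is not separate from that choice. Nr1d1, the repressor REV-ERBalpha, was at 28.1, 27.5 and 24.5 FPKM in the stretched control and 17.7, 20.1 and 16.3 FPKM with Wnt5a siRNA (log2 change −0.54 ± 0.08). Ciart, another repressor, was at 4.72, 4.62 and 5.47 FPKM in the stretched control and 2.87, 2.99 and 2.79 FPKM with Wnt5a siRNA (log2 change −0.61 ± 0.10). Counted again, the lower genes were 4 with the 6 stretched libraries alone or without stretched control 1, stretched control 2, stretched Wnt5a siRNA 1 or stretched Wnt5a siRNA 3 and 5 under TPM scaling or without stretched Wnt5a siRNA 2. Targets of NRF2 and antioxidant genes were lower in 5 and higher in 2 of 25. Gclc, the limiting enzyme of glutathione synthesis, was at 50.1, 56.7 and 31.02 FPKM in the stretched control and 24.5, 25.8 and 20.6 FPKM with Wnt5a siRNA (log2 change −0.89 ± 0.17), and Me1 and Txnrd1, which supply or use NADPH, changed by −0.303 ± 0.07 and −0.44 ± 0.11. Such lower genes numbered 2 under TPM scaling or with the 6 stretched libraries alone or without stretched control 1 and 13 without stretched control 3. Me1 lost its call after quantile normalization (adjusted p = 0.0622) or under TPM scaling (adjusted p = 0.0785). The call of Txnrd1 was lost without stretched control 1, stretched control 2 or stretched Wnt5a siRNA 1 or with the 6 stretched libraries alone (adjusted p 0.0521 to 0.0689).

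Chemokines and targets of NF-kB were lower in 9 of 17 and higher in 1. Il1rl1, the receptor of interleukin 33, was at 158, 162 and 115 FPKM in the stretched control and 73.2, 89.9 and 51.6 FPKM with Wnt5a siRNA (log2 change −1.03 ± 0.20). Cx3cl1, the chemokine fractalkine, was at 30.4, 25.9 and 36.2 FPKM in the stretched control and 15.99, 16.6 and 15.2 FPKM with Wnt5a siRNA (log2 change −0.898 ± 0.14), where stretched control 3 was the highest control. Icam1, an adhesion molecule, changed by −0.69 ± 0.15. On the lower side the count was 5 without stretched control 1 or stretched Wnt5a siRNA 1. Cytokines of the gp130 family and their SOCS brakes had 3 higher and 3 lower of 12, too few to set apart from the 13.2% and 14.2% of all genes. Cish and Clcf1 changed by −0.67 ± 0.10 and −0.67 ± 0.14, Stat3 by −0.34 ± 0.09 and Socs2 by 0.42 ± 0.11, and the higher count was 0 with the 6 stretched libraries alone or without stretched control 1, stretched Wnt5a siRNA 1 or stretched Wnt5a siRNA 3. Growth factors and neurotrophins were higher in 8 and lower in 4 of 26. Bdnf, a neurotrophin, was lower, at 5.54, 3.77 and 4.06 FPKM in the stretched control and 1.88, 2.08 and 1.55 FPKM with Wnt5a siRNA (log2 change −0.93 ± 0.15). Igfbp5, a binding protein of insulin-like growth factors, was higher, at 5.09, 5.85 and 10.02 FPKM in the stretched control and 17.2, 19.5 and 23.7 FPKM with Wnt5a siRNA (log2 change 1.44 ± 0.25), as was Ntf3, neurotrophin 3, at 1.92, 2.43 and 4.15 FPKM in the stretched control and 6.09, 6.64 and 9.92 FPKM with Wnt5a siRNA (log2 change 1.17 ± 0.21). Angpt1, the vessel factor angiopoietin 1, changed by 1.29 ± 0.25. Genes called higher numbered 5 without stretched control 1. Stat3 lost its call without stretched control 1, stretched control 2, stretched Wnt5a siRNA 1 or stretched Wnt5a siRNA 3, after quantile normalization, under TPM scaling or with the 6 stretched libraries alone (adjusted p 0.056 to 0.0843). The call of Socs2 was lost without stretched control 1, stretched Wnt5a siRNA 1 or stretched Wnt5a siRNA 3 or with the 6 stretched libraries alone (adjusted p 0.0603 to 0.0801).

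**Figure D4:**
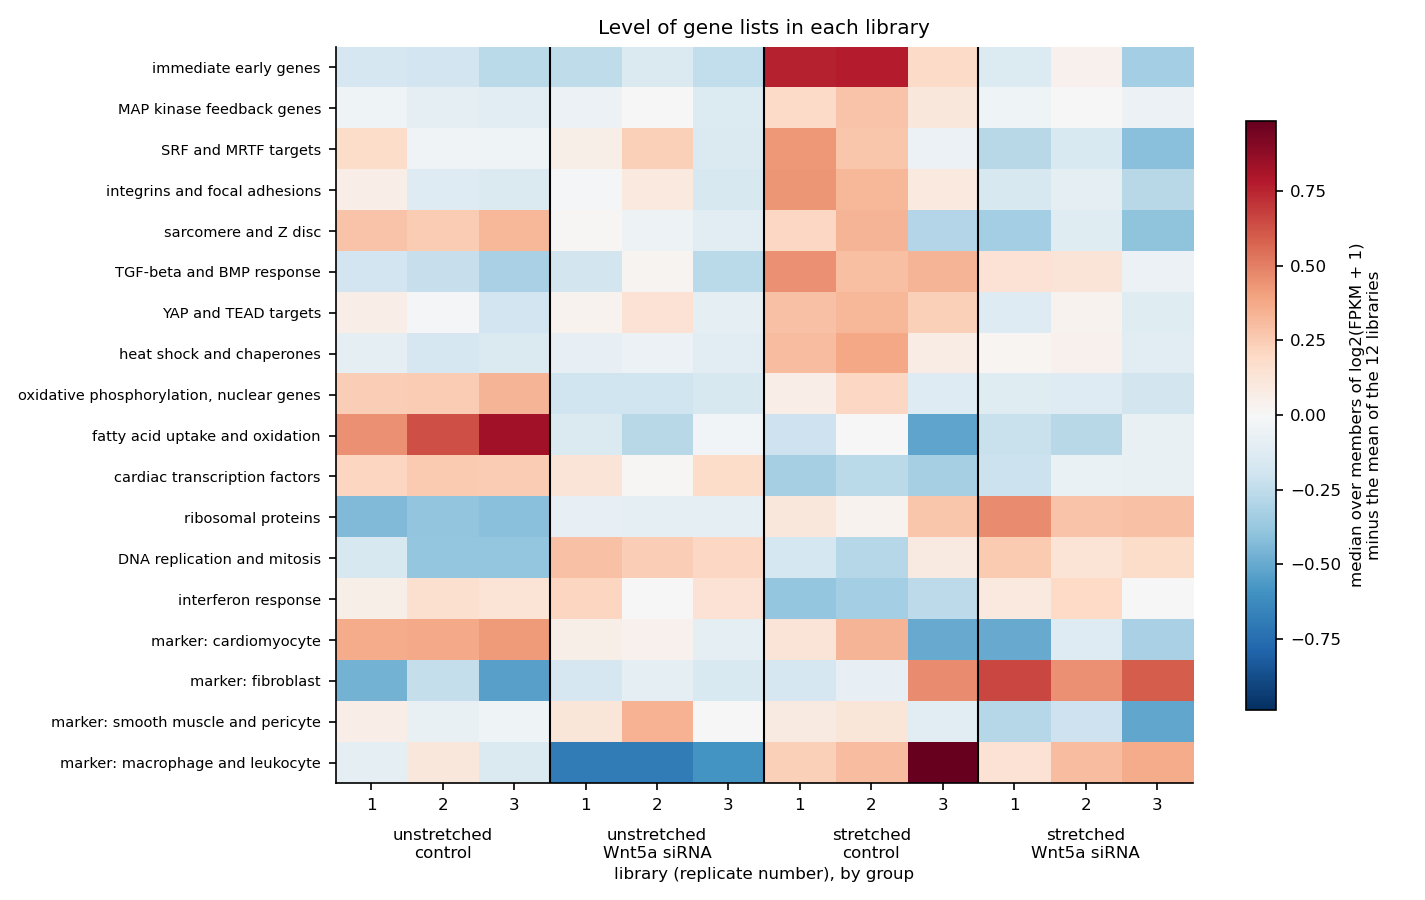
Level of 18 gene lists in each of the 12 libraries, as the median over tested members of log2(FPKM + 1) minus the mean of the 12 libraries; red is above and blue below that mean, and columns are libraries by group and replicate number. In the row of immediate early genes stretched controls 1 and 2 are the reddest libraries, and stretched control 3 is paler, between them and the stretched Wnt5a siRNA libraries.

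Markers of other cell types that a heart culture can hold were measured beside these groups. Of 15 tested fibroblast markers 6 were higher. Col3a1, a fibrillar collagen, was at 1583, 1602 and 2737 FPKM in the stretched control and 3182, 3174 and 3412 FPKM with Wnt5a siRNA (log2 change 0.77 ± 0.17). Col1a1, another, was at 1953, 1870.1 and 3007 FPKM in the stretched control and 3353, 3106 and 3521 FPKM with Wnt5a siRNA (log2 change 0.58 ± 0.14). In both, stretched control 3 was the highest control, near the siRNA libraries. Counted again, the higher genes were 1 without stretched control 1 or stretched Wnt5a siRNA 3, 2 with the 6 stretched libraries alone and 3 without stretched control 2 or stretched Wnt5a siRNA 1. Of 14 smooth muscle and pericyte markers 8 were lower and 2 higher, with summed FPKM between 5671 and 9019.8 in the stretched control and between 3953 and 4715 in the siRNA libraries. The lower count was 3 without stretched control 1 and 4 without stretched Wnt5a siRNA 3. Several of these, such as Cnn1 and Des, also stand in the SRF and sarcomere lists. Of 12 endothelial markers 3 were higher and 1 lower, Cldn5 going from 0.833, 1.31 and 1.13 to 5.16, 3.44 and 3.04 FPKM, while Vwf and Robo4 were under 1 FPKM in all 6 libraries. Of 11 cardiomyocyte markers 4 were lower and 1 higher, and the lower count was 0 without stretched Wnt5a siRNA 3, 1 with the 6 stretched libraries alone and 7 without stretched control 3. How far shifts in cell types carried the gene groups above was not tested. Col3a1 lost its call with the 6 stretched libraries alone (adjusted p = 0.0501). The call of Col1a1 was lost without stretched control 1 or stretched Wnt5a siRNA 3 or with the 6 stretched libraries alone (adjusted p 0.0561 to 0.0752).

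The same siRNAs were compared without stretch in libraries of their own. There 1536 genes were higher and 1466 lower, 14.6% and 13.9% of those tested. Leaving out any 1 unstretched library gave 927 to 1258 higher and 847 to 1271 lower genes, with the lowest counts without unstretched control 3. Of the genes higher under stretch, 309 were also higher without it, 22.3% of the stretched and 20.1% of the unstretched list. Of the lower ones, 230 were lower in both states, 15.4% and 15.7% of the lists. Opposite calls were made for 155 genes higher under stretch and lower without it, 11.2% and 10.6% of the lists, and for 192 genes lower under stretch and higher without it, 12.9% and 12.5%. Across the tested genes, which are not independent replicates, the log2 changes in the 2 states had a Pearson r of 0.10 and a Spearman rho of 0.11.

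The difference between the siRNA changes in the 2 states was tested as an interaction, and 2503 genes passed, 23.8% of those tested, 1226 of them more positive and 1277 more negative under stretch. The count was 3638 without stretched control 3, 1574 without stretched Wnt5a siRNA 3 and 1612 without unstretched control 3. Among the genes called under stretch 1305 did so. Nppa went opposite ways, with means of 1495 ± 291 FPKM in the unstretched control, 6089.8 ± 2894 in the unstretched siRNA, 8177 ± 2620.1 in the stretched control and 3013 ± 1086 in the stretched siRNA libraries (SD, n = 3). Bdkrb2 was likewise higher with the siRNA without stretch and lower under it. Genes with the smallest adjusted p of the interaction included Tspan18, a tetraspanin, at 16.1, 19.5 and 19.4 FPKM in the stretched control and 40.9, 39.1 and 47.1 FPKM with Wnt5a siRNA (log2 change 1.16 ± 0.12), with a log2 change of −0.51 without stretch. Smim8 (0.77 ± 0.10) and Smim20 (0.41 ± 0.06), small membrane proteins, Abhd8, a hydrolase-like protein (0.65 ± 0.08), and Bdh2, a dehydrogenase (0.66 ± 0.11), also rose under stretch and fell without it. Fibin, a secreted factor, was at 108, 105 and 112 FPKM in the stretched control and 95.3, 98.3 and 99.3 FPKM with Wnt5a siRNA and did not pass under stretch (adjusted p = 0.0806 by limma), but rose without stretch, by 0.85. Prrg4 (−0.56 ± 0.09), Pkp1, a plakophilin of desmosomes (−0.83 ± 0.15), Nptxr, a pentraxin receptor (−0.53 ± 0.11), and Tmem43, a nuclear envelope protein (−0.58 ± 0.07), fell under stretch and rose without it.

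**Figure D5:**
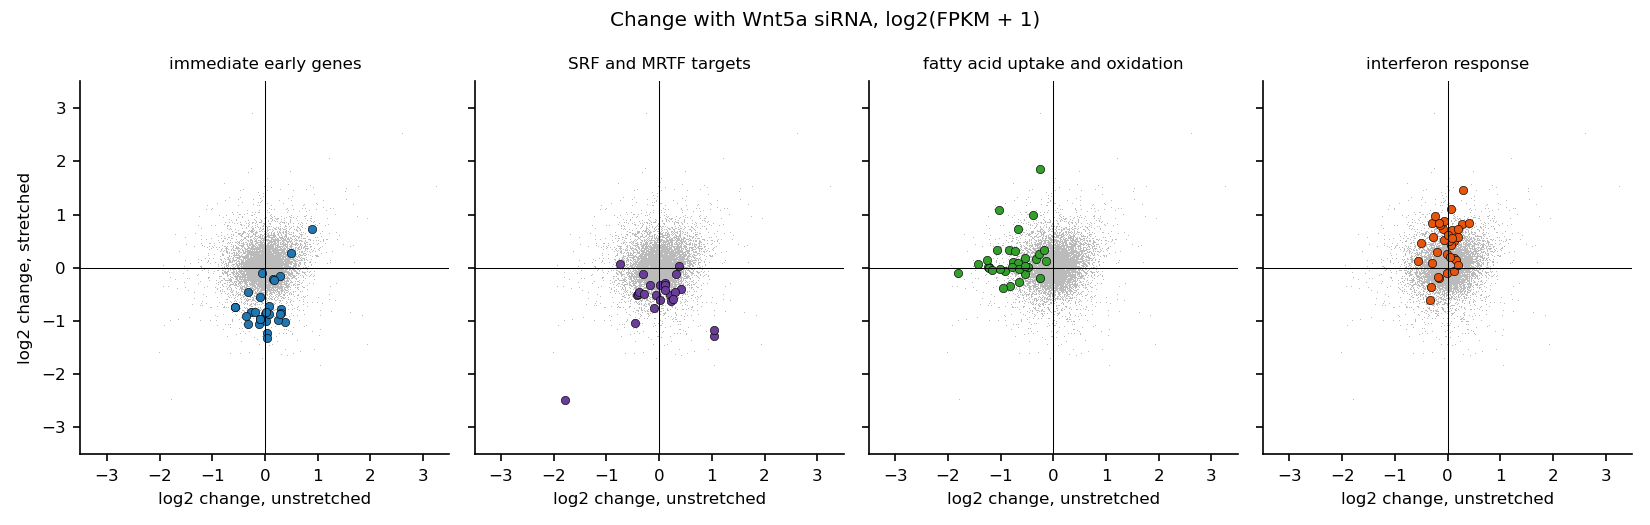
Log2 change with Wnt5a siRNA in stretched cells (vertical axis) against that in unstretched cells (horizontal axis) for all tested genes (grey) and the members of 4 lists (coloured points); axes are differences of log2(FPKM + 1) between group means. Immediate early and SRF targets lie mostly below the horizontal line, interferon response genes mostly above it, and fatty acid genes to the left of the vertical line and near the horizontal one.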

How the data were processed

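RNA of 12 libraries was extracted with a miRNeasy kit and made into stranded TruSeq mRNA libraries, per the labels' protocols. The deposited FPKM values were made by the authors, whose processing notes name TopHat2 2.1.1, Bowtie2, Cuffdiff 2.2.1 and rn6. The sources used here do not give the annotation or any filter. FPKM of short, overlapping or copied genes are uncertain, and a 0 can be a failed estimate.

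Libraries were matched by gene symbol. Values of log2(FPKM + 1) for genes with at least 1 FPKM in 3 libraries were fitted with limma 3.58.1 in R 4.3.3. The fit had 4 group means and a trend. It was also run on simulated data of independent normal noise, in which no library stood apart as stretched control 3 does. Calls are 2-sided, Benjamini-Hochberg adjusted over all tested genes, at 0.05. Alternatives covered the pseudocount, the filter, the scaling, a replicate block, the samples fitted and each library left out. Members and lists were chosen with earlier results of these data known. Named genes were Wnt5a and the readouts, the 15 largest rises and 14 of the largest falls by the rule stated with them (at least 5 FPKM in the higher group), up to 4 called members of a list by adjusted p, or 2 by level where none was called, and 5 genes each way by interaction. Some genes these rules take are not reported here. The MCAT, CArG and other motifs were searched by exact letters in RefSeq promoters of GRCr8, a build other than that of the FPKM, matched by symbol.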

Additional observations from a re-analysis of the deposited data

Results flagged for a closer look

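The siRNA change was compared between stretched and unstretched cells by the interaction in limma, and 2503 genes differed. Of the 177 genes named in the report 115 were among them, 73 with a more negative and 42 with a more positive change under stretch. All 115 also passed without stretched control 3. Over all tested genes the share was 23.8%. Many of the named genes were chosen by their change under stretch, which is part of this difference, or by the interaction itself. The share and signs among the named genes are therefore largely set by the choice. Values are the log2 change under stretch minus that without stretch.

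Among the readouts the difference was −3.38 for Nppa, −2.15 for Nppb, −1.12 for Myh7, −1.58 for Ctgf and −1.09 for Cyr61, while it was 0.701 for Wnt5a. Further YAP and TEAD targets were Tgfb2 at −1.52 and Gadd45a at −0.98. In the Wnt lists it was −0.34 for Prickle1, −0.46 for Rac1, −0.33 for Cdc42, −0.96 for Fzd5 and −0.98 for Ccnd1, against 0.68 for Nkd1 and 0.81 for Tcf7l2.

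The genes with the largest falls and rises were chosen by their change under stretch, which is part of this difference, so its sign largely follows from the choice. Bdkrb2 differed by −2.89, Hbegf by −2.46, Krt80 by −2.23, Lmcd1 by −2.08, Gadd45g by −1.93, Dusp26 by −1.92 and Noct by −1.65. Ptgs2 differed by −1.63, Akip1 by −1.59, Prss23 by −1.44, Cyp26b1 by −1.33 and Rcan1 by −1.31. Of the largest rises, Nr0b2 differed by 2.35, G0s2 by 2.11, Mb by 2.096, Frem2 by 1.87, Akr1cl by 1.58, Smtnl2 by 1.39, Cilp by 1.12 and H19 by 0.83. Casq1 had the opposite sign, at −1.74.

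Named genes of signalling and early response with a more negative change under stretch were Junb (−0.95), Ier2 (−1.01), Bhlhe40 (−1.08), Egr3 (−1.36), Dusp1 (−0.697), Dusp6 (−1.23), Spry2 (−0.76), Areg (−1.98), Tgfa (−0.68), Ramp3 (−1.26), Inhba (−1.12), Fst (−0.91), Bdnf (−1.398), Clcf1 (−0.67), Il1rl1 (−1.37) and Cx3cl1 (−0.699). In the clock list the values were −1.33 for Ciart and −0.61 for Nr1d1. Those with a more positive change were Igfbp5 (1.404), Ntf3 (1.17), Ednra (1.23), Rcan2 (1.29) and Socs2 (0.78).

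Of the named genes of contraction, adhesion and matrix, more negative values were found for Cnn1 (−2.31), Fhl1 (−2.22), Actn1 (−1.47), Nes (−1.33), Thbs1 (−1.31), Des (−1.203), Myl4 (−1.02), Plod2 (−0.77), Tagln2 (−0.75), Cryab (−0.703), Tpm2 (−0.62) and Lamc1 (−0.51). Mmp2 (0.48), Gja1 (0.51), Kcnh2 (1.07), Kcnj12 (0.67) and the endothelial marker Cldn5 (1.17) were more positive.

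Named genes of fuel use and its regulators with a more positive change under stretch were Hadh (2.11), Acsl1 (1.39), Pfkm (1.51), Eno3 (1.11), Pygb (0.896), Ckm (1.12), Ndufa4 (0.67), Bckdhb (0.46), Irx4 (1.35), Ppargc1a (1.16) and Tbx20 (0.39), and so were the interferon genes Oas1a (1.04), Parp9 (0.85), Irf9 (0.63) and Bst2 (0.54) and the kinase Cdk4 (0.25). More negative values were found for the named genes Atf4 (−0.67), Slc7a1 (−0.93), Hspa1b (−1.02), Cct3 (−0.52), Dnajb11 (−0.52), Edem1 (−0.42), Pdia3 (−0.399), Ncl (−0.61), Eif5 (−0.38), Eif1 (−0.37), Eif4a2 (−0.34), Txnrd1 (−0.62) and Me1 (−0.41). Genes chosen for a small adjusted p of the interaction were Tspan18 (1.68), Smim8 (1.497), Smim20 (0.88), Abhd8 (1.03), Bdh2 (1.49), Fibin (−1.004), Prrg4 (−1.56), Pkp1 (−2.08), Nptxr (−1.32) and Tmem43 (−0.88). Over the lists, NRF2 and antioxidant genes had 4 more positive and 4 more negative members, growth factors 6 and 2, and ribosomal proteins 1 of 46 that differed.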

How the results depend on the processing

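Counts of higher and lower genes under stretch depended on which libraries were fitted. Leaving out any 1 stretched library gave 515 to 2288 higher and 587 to 2380 lower genes, and fitting only the 6 stretched libraries gave 580 and 628. TPM scaling gave 2187 and 811. At least 1.5-fold were 488 and 376 genes, and without stretch 438 and 467, while 1338 genes had an interaction of that size. Without stretch the counts ran from 927 to 1258 and from 847 to 1271 over the libraries left out, and genes with an interaction from 1574 to 3638. The other settings, namely the pseudocount, the filter, median ratio scaling, quantile normalization and a variance with no trend, kept these counts within 1.5 times. Wnt5a under stretch did not pass in any fit, at −0.28 to −0.04 over the libraries left out. Signs turned only in named genes that were not called with all libraries. Myh7 ran from −0.0687 (without stretched Wnt5a siRNA 2) to 0.147 over the libraries left out, Ror2 from −0.0068 (likewise) to 0.149, Ckm from −0.442 to 0.245 and Slc25a4 from −0.0278 (without stretched control 3) to 0.123. Quantile normalization and TPM scaling gave 0.0406 and 0.0584 for Yap1 and 0.0666 and 0.0437 for Ckm, and the former 0.0012 for Fibin. The causes were not tested.

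Deviations of same-numbered stretched libraries from their group means correlated across genes at 0.22, 0.09 and 0.23, and those of differently numbered ones at −0.39 to 0.21. Stretched Wnt5a siRNA 2 correlated best with stretched control 1 (0.21). Without stretch the values were 0.16, 0.06 and 0.19 for the same number and −0.19 to 0.07 for different numbers. These values do not settle whether the replicate numbers pair the libraries. The replicate block gave 1432 higher and 1496 lower genes under stretch, 1575 and 1518 without it, and 2566 with an interaction. Under it the named gene Taok1 lost its call (adjusted p = 0.0532). FPKM carry no depth, so no limit of detection can be given.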
